A study of Mus musculus with 6 samples.

Results

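The genes described here are 6 mouse oligoadenylate synthetase (OAS) genes, Oas1a, Oas1b, Oas2, Oas3, Oasl1 and Oasl2. They were taken by gene symbol from the 15634 genes in the files, and all 6 passed the filter on low counts, as did 15547 genes in all. The study compared bone marrow-derived mesenchymal stem cells (MSCs, adherent stromal cells of the marrow) of wild-type (WT) C57BL/6J mice in 2 groups of 3 libraries. The Control group was left unstimulated, and the TNF group received the inflammatory cytokine TNF-α at 10 ng/mL for 24 h. Total counts ranged from 45629973 to 77142418 per library. Both groups grew in α-MEM with 15% fetal bovine serum and antibiotics. The age of the mice is not stated, nor whether the 3 libraries of a group came from separate animals or cultures. The p-values below therefore measure only the spread between these libraries.

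OAS enzymes bind double-stranded RNA, a hallmark of viral infection, and then join ATP into short chains with 2'-5' linkages, called 2-5A. 2-5A acts as a second messenger of the antiviral response inside the cell. The genes are induced by interferons in most cell types, through transcription factors that include STAT2 and IRF9 and bind a DNA element called ISRE. Oas1a, Oas2 and Oas3 encode enzymes that differ in how many copies of the OAS unit they hold. Oasl1 and Oasl2 encode OAS-like proteins with ubiquitin-like domains at the end. Mouse Oasl2 makes 2-5A, while Oasl1 does not and is known to hold back translation of Irf7. Oas1b is the flavivirus resistance gene of mice, and most laboratory strains, C57BL/6 among them, carry a stop codon in it. The deposited files class Oas1b as a polymorphic pseudogene and the other 5 genes as protein-coding.

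All 6 genes rose with TNF-α, between 2.65-fold (Oas1a) and 12.5-fold (Oasl1). The 6 genes' summed level went from 22.4, 27.6 and 24.1 TPM (a level scaled to gene length and library size) in Control libraries 1 to 3 to 244, 179 and 174 TPM in TNF libraries 1 to 3. Oasl2 was the most abundant of the 6 in every library. Its share of the summed TPM went from 58.7% to 82.4%.

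The genes lie on chromosome 5 in 2 clusters. In the gene order of RefSeq (assembly GRCm38.p6), Oasl2 and Oasl1 are side by side. The other cluster runs Oas2, Oas3, Oas1e, Oas1c, Oas1b, Oas1f, Oas1h, Oas1g, Oas1a, Oas1d. Of the 6 Oas1 paralogs in it that are not among the genes described, Oas1c and Oas1g were measured, and the others were not analysed here. RefSeq promoter windows (300 bases, 250 before to 50 after the transcription start, build GRCm38.p6) were found for Oas1a, Oas3, Oasl1 and Oasl2, and for Oas1c and Oas1g among the measured paralogs. Oas1b and Oas2 had no entry. The sequences are shown because the 6 genes rose together and the ISRE is the best known element of this family. The motif searched was the ISRE core, GAAA followed by any 2 bases and GAAA again, on both strands and with overlapping matches counted. Capitals mark it. Each line gives the match with the 15 bases on either side, read 5′ to 3′ along the gene's own strand. The coordinates beside each gene are those of its whole window of 300 bases.
Oas1a (chr5:120907476-120907775, minus strand): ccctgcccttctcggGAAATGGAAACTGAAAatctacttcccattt
Oas1g (chr5:120887564-120887863, minus strand): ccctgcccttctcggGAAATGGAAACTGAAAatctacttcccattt
Oas1c (chr5:120812465-120812764, minus strand): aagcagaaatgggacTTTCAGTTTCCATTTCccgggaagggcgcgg
Oas3 (chr5:120777610-120777909, minus strand): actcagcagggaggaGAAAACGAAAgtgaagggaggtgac

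The Oas1a and Oas1g windows hold 2 overlapping matches, which begin 20 and 14 bases before the start in Oas1a and 18 and 12 bases before it in Oas1g. The shown stretches of these paralogs are the same letter for letter. Oas1c holds 2 overlapping matches in the opposite orientation, from 114 and 108 bases before its start, and Oas3 holds 1, from 75 bases before. The core was in 2 of the 4 windows of the genes described and in 3.44% of all 32851 RefSeq promoter windows of this length. The window of Oasl2, the gene with the highest level, has no capitals, since these letters are not in it.
Oasl2 (chr5:114896684-114896983, plus strand): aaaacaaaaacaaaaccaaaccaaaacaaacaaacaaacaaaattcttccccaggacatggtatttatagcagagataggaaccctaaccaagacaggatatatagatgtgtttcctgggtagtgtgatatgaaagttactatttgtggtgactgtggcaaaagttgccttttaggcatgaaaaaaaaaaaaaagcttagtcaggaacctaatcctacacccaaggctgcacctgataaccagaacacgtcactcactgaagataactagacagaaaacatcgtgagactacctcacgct

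The Oasl1 window did not hold the core either. A second motif, GAS (TTC, any 3 bases, GAA; an element of interferon-γ responses), was found once in the Oas1a window, 98 bases before the start, and in 8.3% of all windows. An NF-kB motif (GGG, any 2 bases, TTTCC) was in none of the 4 windows and in 1.63% of all. Such matches describe the letters only, and no binding was measured here.

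The OAS-like genes had the largest changes of the 6. Gene changes are given in CPM (counts scaled to library size with TMM factors), as mean ± SD over the 3 libraries of a group. Oasl2 had 15.98, 25.4 and 18.5 CPM in the Control libraries, given here and below in the order 1, 2 and 3, and 262, 228 and 197 CPM in the TNF libraries. The groups did not overlap, and the lowest TNF library was 7.74 times the highest Control library, which was library 2. The means were 19.96 ± 4.90 and 229 ± 32.4 CPM (n = 3 each), a log2 fold change of 3.52 ± 0.19 (SE; adjusted p = 3.12e-06, edgeR's quasi-likelihood test). Oasl1, the OAS-like gene without synthetase activity, had 12, 17 and 11 counts in the Control libraries and 149, 107 and 124 in the TNF libraries. In CPM these were 0.202, 0.225 and 0.193, against 2.96, 2.73 and 2.16. Each TNF library was at least 9.61 times every Control library. The log2 fold change was 3.64 ± 0.23 (adjusted p = 6.89e-06).

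Oas1a encodes a small OAS enzyme and changed least of the 6. It had 5.49, 6.92 and 5.54 CPM in the Control libraries and 21.1, 13.2 and 13.3 CPM in the TNF libraries. TNF library 1 stood above the other TNF libraries, and the groups did not overlap. Means were 5.98 ± 0.811 and 15.9 ± 4.54 CPM (n = 3 each), with a log2 fold change of 1.40 ± 0.20 (adjusted p = 0.000751, edgeR's quasi-likelihood test), and 1.14 without TNF library 1. Oas1b, the pseudogene-classed resistance gene, rose more, from 0.689, 0.860 and 0.896 CPM to 4.42, 4.65 and 3.96 CPM. Its Control values rest on 41, 65 and 51 counts. The 3 TNF libraries lay close together, all at least 4.42 times the highest Control library, and the log2 fold change was 2.41 ± 0.16 (adjusted p = 1.03e-05).

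Oas2 and Oas3 encode the larger enzymes of the family. Oas2 had 1.39, 1.31 and 1.002 CPM in the Control libraries and 7.34, 8.27 and 5.48 CPM in the TNF libraries, without overlap. Its log2 fold change was 2.50 ± 0.20 (adjusted p = 2.66e-05, edgeR's quasi-likelihood test). Oas3 had 5.66, 7.96 and 7.24 CPM in the Control libraries and 37.7, 27.4 and 20.5 CPM in the TNF libraries. The TNF libraries of Oas3 were spread the most of the 6 genes (coefficient of variation 30.4%), yet the lowest was 2.57 times the highest Control library. The log2 fold change was 2.03 ± 0.22 (adjusted p = 0.000187).

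All 6 genes were thus called higher, where 16.0% of the 15547 tested genes were, and the groups of all 6 did not overlap, as for 24.0% of tested genes in that direction. Their median log2 fold change was 2.45, against -0.0046 over all genes tested. When library totals alone set the scale, 38.5% of all calls were higher instead of 49.4%, and the 6 genes were called higher under both. On the log2(TPM + 1) scale the fold changes of the 3 genes with the lowest levels were smaller (Oasl1 1.39, Oas2 1.36, Oas1b 1.52), since the added 1 exceeds their Control level.

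**Figure D1:**
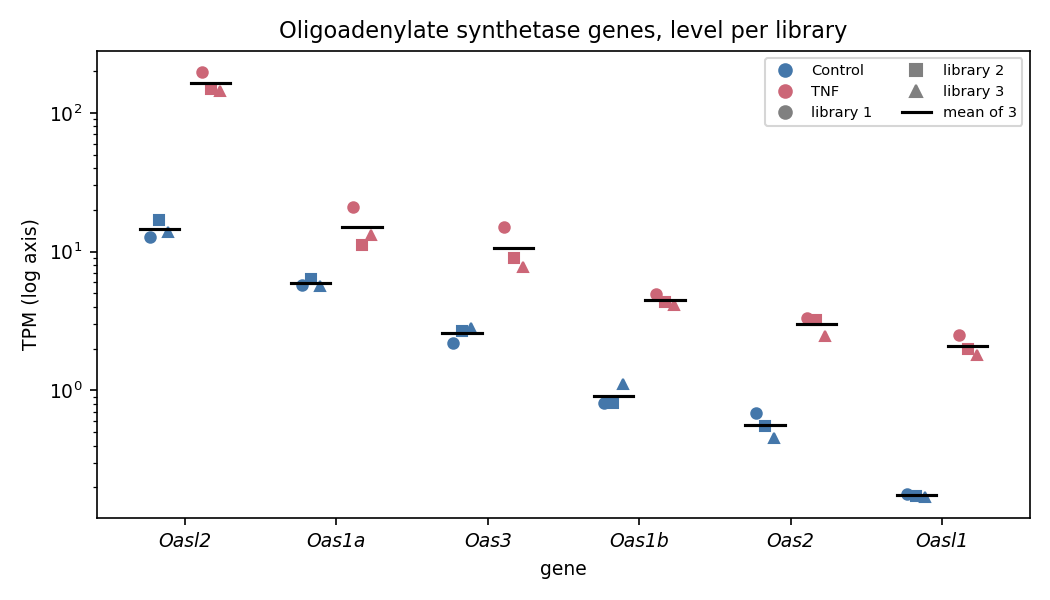
TPM (log axis) of the 6 OAS genes in each library, ordered by mean Control level, with Control libraries in blue, TNF libraries in red, a marker shape for each library number and a line at each group's mean. Each gene's TNF libraries lie above its Control libraries, and Oasl2 has the highest level in both groups.

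Levels between genes can be compared only per length, so TPM is used for their order. In the Control group the order was Oasl2 (14.5 ± 2.23 TPM), Oas1a (5.92 ± 0.369), Oas3 (2.58 ± 0.328), Oas1b (0.911 ± 0.173), Oas2 (0.563 ± 0.115) and Oasl1 (0.176 ± 0.00443), each mean ± SD with n = 3. No neighbours in this order overlapped, although Oas1b was only 1.19 times Oas2 in the library where they were closest. The TNF group had the same order, at 164 ± 28.9, 15.1 ± 5.19, 10.6 ± 3.96, 4.47 ± 0.430, 3.01 ± 0.482 and 2.10 ± 0.365 TPM. There the ranges of Oas1a and Oas3 overlapped, as did those of Oas2 and Oasl1, though each pair kept its order within every library. Oasl2 was 2.19 to 2.68 times Oas1a in the Control libraries and 9.37 to 13.3 times Oas1a in the TNF libraries.

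The make-up of the summed TPM of the 6 genes shifted toward Oasl2. The measured paralogs are not in this sum. Oas1c had 3.10 ± 0.441 TPM in Control and 5.495 ± 2.12 in TNF, and Oas1g 1.07 ± 0.0659 and 3.24 ± 1.30 (SD, n = 3 each). The share of Oasl2 was 56.7%, 61.6% and 57.6% in the Control libraries and 80.8%, 83.4% and 83.2% in the TNF libraries. The shares did not overlap between groups, and the means differed by 23.8 percentage points. Oas1a moved the other way, from 24.1% ± 1.59 to 7.48% ± 1.17 (SD, n = 3 each), and Oas3 from 10.5% ± 1.12 to 5.22% ± 0.903. These shares fell while the levels of both genes rose. Oasl1 stayed the smallest part, at 0.719% ± 0.0869 and 1.06% ± 0.0434. Oas1b had 3.73% ± 0.843 and 2.27% ± 0.209, and Oas2 2.32% ± 0.644 and 1.53% ± 0.238. The mean difference for Oas2, -0.787 points, was -0.417 points without Control library 1. An exact permutation test of each of the 6 shares (two-sided) gave p = 0.1, the smallest that 3 against 3 libraries can give, so no share could pass 0.05.

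**Figure D2:**
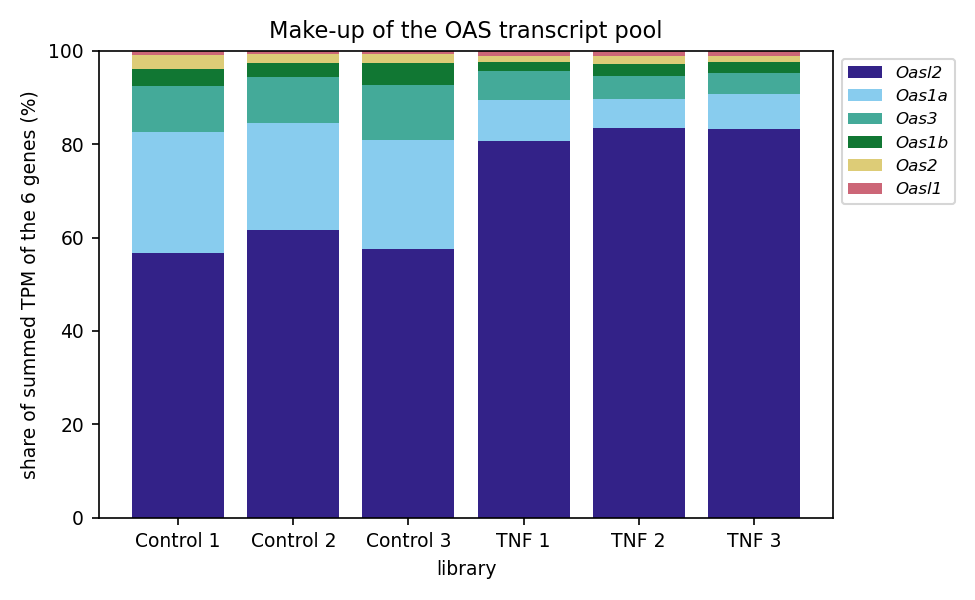
Share (%) of the summed TPM of the 6 OAS genes taken by each gene, as stacked bars, 1 bar for each library. The Oasl2 part runs from 56.7% to 61.6% in the Control libraries and from 80.8% to 83.4% in the TNF libraries.

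Differences between the genes' fold changes were also taken within libraries, for all 15 pairs, with 2 added to each count before the log, which shrinks the changes of low genes. In 11 pairs the within-library log2 ratio did not overlap between the groups. The 15 pairs share the same 6 genes and so are not independent, and the share among pairs of other genes was not taken. Every exact permutation test (two-sided) was at or above p = 0.1, the smallest possible with 3 against 3 libraries, and 0.136 after adjustment over the 15 pairs. For Oasl1 minus Oasl2 the difference was -0.09 on this scale and 0.12 between the edgeR fold changes, with overlapping ratios, so the order of these 2 genes is not settled. The other 14 pairs had the same sign on both scales. It was -2.16 for Oas1a minus Oasl2 and -0.995 for Oas1a minus Oas1b, without overlap in either case. Within the TNF group, library 3 was the lowest of the group for 5 of the 6 genes and library 1 the highest for 4. In the Control group, library 2 was the highest for 4 of them. The libraries also differed in other ways. TNF library 2 had 19.4% of its counts on 18S ribosomal RNA, where the other libraries had 1.11% to 3.55%, and Control library 2 had 4.45% on mitochondrial mRNAs, where the others had 1.59% to 2.16%. Without both of these libraries the log2 fold changes of Oasl2 and Oas1a were 3.74 and 1.65, and all 6 genes were still called higher.

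How reads were split among the Oas1 paralogs is uncertain, because their transcripts share sequence. In GENCODE M21 transcripts, 68.8% of the 31-base stretches of Oas1a also occur in another gene, nearly all of them in Oas1g, and 40.9% of its 100-base stretches do. For the other 5 genes described, the share at 31 bases was 6.7% in Oas1b and between 0% (Oas2) and 2.05% (Oas3) in the rest, and 0% at 100 bases. Oas1g itself had 0.806, 1.08 and 0.984 CPM in the Control libraries and 4.20, 2.30 and 2.42 CPM in the TNF libraries. As for Oas1a, TNF library 1 was the highest. Oas1g rose by a log2 fold change of 1.63 ± 0.27 (adjusted p = 0.00179, edgeR's quasi-likelihood test). With the reads of both genes summed, which does not depend on how reads were divided between them, the change was 1.44 ± 0.20, from 6.94 ± 0.927 to 18.8 ± 5.60 CPM (adjusted p = 0.000739).

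Oas1c, which lies next to Oas1b, had 2.84, 2.74 and 2.34 CPM in the Control libraries and 5.45, 3.60 and 5.86 CPM in the TNF libraries, with TNF library 2 nearest the Control group. It was called at a log2 fold change of 0.92 ± 0.19 (adjusted p = 0.00633, edgeR), but not on the log2(TPM + 1) scale (limma adjusted p = 0.0946). Genes beside the clusters did not pass the test. The nearest tested genes by RefSeq order were Dtx1 (log2 fold change 0.09, adjusted p = 0.821 by edgeR) and Ptpn11 (0.06, 0.678) around the Oas1 to Oas3 cluster. Around Oasl1 and Oasl2 they were 1500011B03Rik (0.32, adjusted p = 0.0543 by edgeR) and 2210016L21Rik (0.10, 0.351).

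Genes for 2-5A breakdown and other proteins linked to 2-5A had smaller fold changes than the synthetases, 0.11 to 0.325 on the log2 scale. Of the 3 genes described for this pathway 1 was called higher, where 16.0% of all tested genes were. The median log2 fold change of the 3 was 0.14. Akap7, whose protein is one of those that can break down 2-5A, was the gene called (0.325, adjusted p = 0.0373 by edgeR), and this call was lost when any 1 of the 6 libraries was left out (adjusted p up to 0.0914). Abce1, an ATPase of ribosome recycling, had 131 ± 6.14 and 141 ± 8.73 CPM (log2 fold change 0.11 ± 0.09, adjusted p = 0.373). Pde12, a phosphodiesterase that cleaves 2-5A, had 28.5 ± 1.19 and 31.4 ± 1.53 CPM (0.14 ± 0.08, adjusted p = 0.212).

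**Figure D3:**
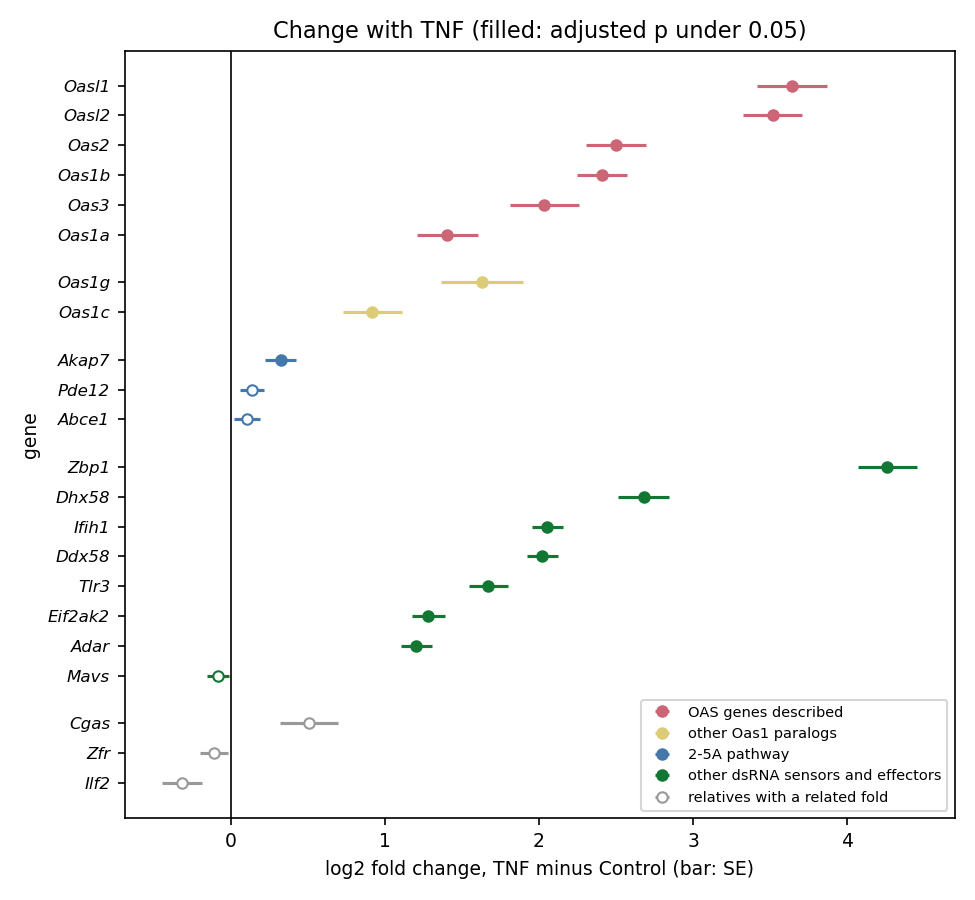
Log2 fold change, TNF minus Control, with its SE, for the 6 OAS genes, the measured paralogs, 3 genes of the 2-5A pathway, other double-stranded RNA sensors and effectors, and proteins with a related fold (filled where adjusted p is under 0.05). The OAS genes run from 1.40 to 3.64 and the 2-5A pathway genes from 0.11 to 0.325.

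Of the other sensors and effectors of double-stranded RNA 7 of 8 were called higher, where 16.0% of all tested genes were. Their median log2 fold change was 1.85. Zbp1, a sensor of left-handed nucleic acid, had the largest change of the list (4.26 ± 0.19), and Dhx58, a RIG-I-like receptor without signalling domains, followed (2.68 ± 0.17). Ifih1 (MDA5) and Ddx58 (RIG-I) rose by 2.05 and 2.02 on the log2 scale. Eif2ak2, the kinase PKR, which can stop protein synthesis, rose by 1.28, and Adar, which edits double-stranded RNA, by 1.21. The member not called was Mavs, the adaptor of RIG-I and MDA5 (-0.08 ± 0.07, adjusted p = 0.388, edgeR). Among 3 genes whose proteins share a fold with OAS (Cgas, Ilf2, Zfr), edgeR called 0, where it called 16.0% of all tested genes higher and 16.4% lower. At an unadjusted p under 0.05, 1 was higher and 1 lower, and the share of all genes at that threshold was not taken. For the 3 genes limma-voom called 0, and DESeq2 called 1, Cgas (adjusted p = 0.0375). Over all 15547 genes limma-voom called 5050 and DESeq2 5518. With 3 genes, none of these counts sets the list apart from all genes. Cgas, the DNA sensor that makes a cyclic dinucleotide, had 4.25 ± 0.976 and 6.03 ± 0.849 CPM.

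Of 17 genes of interferon signalling, 13 were called higher, where 16.0% of all tested genes were. The median log2 fold change of the 17 was 1.10. Whether any of them acted on the OAS genes here was not tested. Usp18, a feedback inhibitor of the interferon receptor, rose by 3.56 and Irf7, the target of Oasl1, by 3.13, from 11.8 ± 1.41 to 103.9 ± 26.8 CPM. Irf1 rose by 2.43, Jak2 by 2.37, Stat2 by 1.83 and Irf9 by 1.20. Of the receptor chains, Ifnar2 rose by 1.13 and Ifngr2 by 0.97. Ifnar1 was called (0.48, adjusted p = 0.0308, edgeR) but not in 5 of the 6 repeats without 1 library, the exception being the one without Control library 2 (adjusted p up to 0.102). Ifngr1, Jak1, Irf3 and Irf8 were not called, and Ifngr1 (0.48, adjusted p = 0.0808 by edgeR) was called without Control library 2 (0.74, adjusted p = 0.00101). Ifnb1, which encodes interferon-β, was not analysed here.

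The 4 genes whose profile over the 6 libraries was most like the mean of the 6 OAS genes were Trim30a, Slfn8, Dhx58 and Psmb9. Likeness is the root mean square difference in log2 CPM, each gene centred on its own mean. It was 0.0732 for Trim30a, 0.0844 for Slfn8, 0.0880 for Dhx58 and 0.0991 for Psmb9. Of the OAS genes themselves Oas1b was nearest to that mean (0.165) and Oas1a farthest (0.596). Trim30a, an interferon-induced member of the TRIM family, had 68.9, 62.1 and 50.008 CPM in the TNF libraries. A low value in TNF library 3 is part of the profile by which these genes were chosen.

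**Figure D4:**
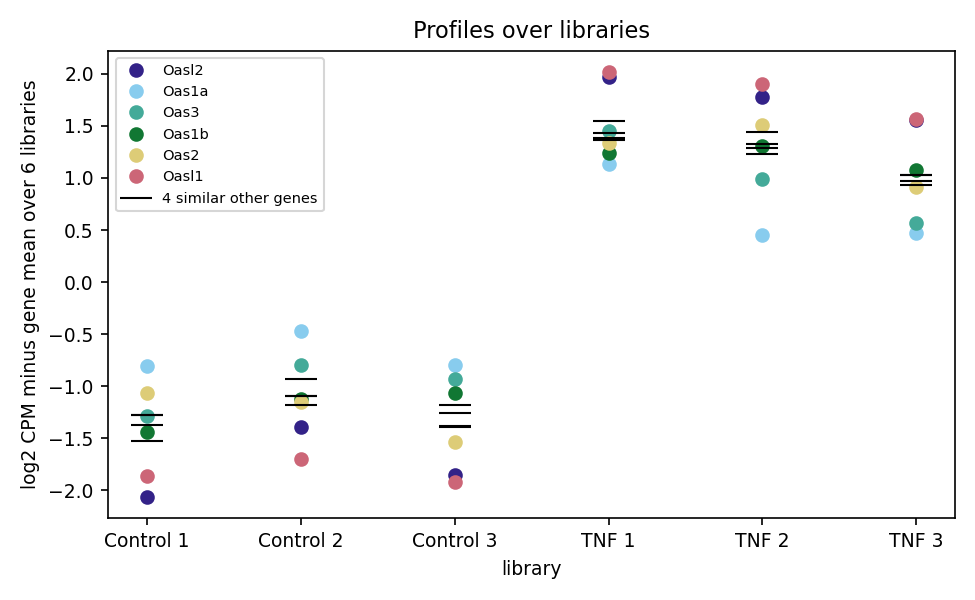
Log2 CPM of each gene minus its mean over the 6 libraries, for the 6 OAS genes (points) and the 4 most similar other genes (dashes), by library. Oasl1 and Oasl2 span the widest range and Oas1a the narrowest, and all 6 genes are lower in TNF library 3 than in TNF library 1.

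Bulk RNA does not show which cells carried these transcripts, and here a change in the number of cells of a type cannot be told apart from a change in RNA per cell. The stromal label was checked with 15 markers, all of them measured. Their summed level was 19090 to 24060 CPM in the Control libraries and 13180 to 14041 in the TNF libraries. Most of this sum was Col1a1 (8205 ± 1686 CPM in Control, 3938 ± 109 in TNF) and Col1a2 (9647 ± 751 and 5865 ± 224), so its fall is mainly theirs. Of the 15 markers 4 were called higher, where 16.0% of all tested genes were. They were Vcam1 (139 to 1170 CPM), Cd44 (177 to 428 CPM), Pdgfra (28.0 to 57.2 CPM) and Lepr (0.475 to 1.55 CPM). Lepr rested on 28, 51 and 16 Control counts. Another 4 were called lower, where 16.4% of all tested genes were. These were the 2 collagens, Thy1 (4.78 to 2.51 CPM) and Lum (48.4 to 22.1 CPM). All 20 macrophage markers also had reads, Adgre1 and Csf1r among them. Their summed level was 2391 to 3577 CPM in the Control libraries and 2329 to 2474 CPM in the TNF libraries, and the groups overlapped. Lyz2 alone made up a large part of it, with 1334 ± 402 CPM in Control and 925 ± 72.8 CPM in TNF (log2 fold change -0.53, adjusted p = 0.0768, edgeR). Without Lyz2 the sum was 1294 to 1779 CPM in Control and 1459 to 1500 CPM in TNF. Of the 20 markers 5 were called higher, where 16.0% of all tested genes were, and 7 lower. Those higher were Cd74 (7.59-fold), Cybb (4.79-fold), Cd14 (2.19-fold), Spi1 (1.34-fold) and Csf1r (1.28-fold). Those lower were Cx3cr1, Mrc1, C1qa, C1qb, C1qc, Cd68 and Aif1, with log2 fold changes from -1.95 to -0.62. Control library 2 had the highest Control sum of the macrophage markers (3577 CPM) and of the stromal markers (24060 CPM). In this library 4 of the 6 OAS genes had their highest Control value. Of 12 markers of lymphocytes, neutrophils, plasmacytoid dendritic cells and endothelium only S100a8 and Kdr were tested. S100a8, a neutrophil marker, rose from 0.220 ± 0.0233 to 0.838 ± 0.111 CPM (log2 fold change 1.93, adjusted p = 0.000700, edgeR). Kdr, an endothelial marker, had 16, 16 and 18 counts in the Control libraries and 3, 4 and 6 in the TNF libraries. In CPM these were 0.266 ± 0.0524 and 0.0888 ± 0.0253 (log2 fold change -1.55, adjusted p = 0.0193, edgeR), and DESeq2 did not call Kdr. Listed genes all had at least 10 counts in at least 3 libraries. Kdr was thus listed only through its Control counts, and its fall is not read as a result. The part of these cell types in the OAS result was not tested.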

How the data were processed

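Total RNA of 3 Control and 3 TNF libraries was sequenced, with libraries made with the SMART-Seq Stranded Kit per the labels' protocols. Trim Galore, STAR, StringTie and Salmon and build GRCm39 are named per the submitters' processing notes, and versions are not given in the sources used here. The authors deposited expected counts per gene as whole numbers (titled normalized, named raw), whose totals of 45629973 to 77142418 show no scaling to depth. TPM were deposited by the authors with gene names. Count and TPM lines were joined by position, which was checked: 260 zeros of each fell on the same lines, and the median SD of log2(count/TPM) over libraries was 0.0275, against 0.413 with lines moved by 1. Listed genes all had at least 10 counts in at least 3 libraries.

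The count model was that of edgeR 4.0.16, run in R 4.3.3 (filterByExpr, TMM, glmQLFit, glmQLFTest, two-sided, group only), with Benjamini-Hochberg adjustment over 15547 genes and calls at adjusted p under 0.05. The SE is the absolute log2 fold change divided by the square root of F. On simulated counts for 15547 genes, 42% of genes changed 1.5-fold, 82% changed 2-fold, 92% changed 4-fold and 100% changed 8-fold were called (50 each). Of 15347 unchanged genes 7 were called. Far fewer genes changed in the simulation than were called in the data (5039), so these rates may differ from those of the comparison itself. The number of counts behind a gene limits its precision. Alternatives were other scalings, filters, DESeq2 1.42.0, limma 3.58.1 (voom, and log2 TPM with a pseudocount of 1 or 0.1), a threshold of 0.01, a replicate block, and libraries left out. Named genes were the 6 OAS genes, genes of the lists given, the 4 most alike and the cluster neighbours; some genes of the lists are not reported here. Members, lists and tests were chosen with earlier results of these data known. Promoter sequences and gene order are from RefSeq GRCm38.p6 and transcripts from GENCODE M21, so no coordinates of the files' own build are given.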

Additional observations from a re-analysis of the deposited data

How the results depend on the processing

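In all alternatives run for them (20 for Oas1a, Oas2, Oas3 and Oasl2, 19 for Oas1b and Oasl1), the 6 OAS genes kept their direction and were called higher. A filter at 5 CPM left Oas1b and Oasl1 out. With 1 library left out, which leaves 2 libraries in that group, log2 fold changes ranged from 1.14 to 1.53 for Oas1a, 2.30 to 2.48 for Oas1b, 2.37 to 2.65 for Oas2, 1.78 to 2.23 for Oas3, 3.54 to 3.76 for Oasl1 and 3.38 to 3.73 for Oasl2. Genes called over the whole table were 5039, against 3121 at an adjusted p under 0.01 and 3338 by limma on log2(TPM + 1) with at least 1 TPM in at least 3 libraries, and 3449 to 4795 with 1 library left out. Of the 3 genes of the 2-5A pathway, 0 were called instead of 1 (Akap7) with library totals, on each of the 3 log2 TPM settings, with the replicate number as a block, without Control library 2 and TNF library 2 together (chosen after seeing the data), and without any 1 library (0 in each of the 6), and at an adjusted p under 0.01. Whether the replicate numbers pair the libraries is not stated. Deviations from the group mean correlated at -0.012, -0.304 and -0.222 for same-numbered libraries, over 15547 genes. For libraries with different numbers they correlated at -0.23 to 0.356. With 3 libraries in each group, which also differ in 18S and mitochondrial content, these values cannot decide whether libraries were paired. With the replicate number as a block the log2 fold change was 1.38 for Oas1a and 3.53 for Oasl2. Shares taken from CPM instead of TPM, and so not per length, kept their direction, with differences of -10.1 points for Oas3 and -0.819 for Oas1b against -5.27 and -1.46. Leaving 18S out of the fit and summing Oas1a with Oas1g were also chosen after seeing the data. Control levels of Oasl1 and Oas1b rest on few counts, which limits the precision of their fold changes.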
